A study of Homo sapiens with 6 samples.

Results

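The HOX genes are the homeobox genes of the HOXA, HOXB, HOXC and HOXD clusters. They were chosen by symbol alone, as a HOX cluster letter followed by a paralogue number, so antisense and other noncoding transcripts of the clusters were not members. Of 27259 genes in the count tables, 34 were HOX genes: 9 of HOXA, 8 of HOXB, 8 of HOXC and 9 of HOXD. RefSeq lists 39 protein-coding HOX genes. HOXA9, HOXA13, HOXB9, HOXB13 and HOXC12 had no entry in any library and were not analysed here.

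HOX genes encode homeodomain transcription factors that give cells of the embryo their position along the head-to-tail axis. Genes with the same number in different clusters are paralogues that arose by cluster duplication. Low-numbered genes lie downstream in their cluster and pattern the hindbrain and neck, and high-numbered genes pattern the trunk, limbs and tail. The forebrain forms largely without HOX expression, whereas HOX transcripts are a known feature of many glioblastoma cells.

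RNA-seq was performed on U87MG, an established human glioblastoma cell line, in 2 groups. The 3 U87MG-control libraries came from cells given a control lentivirus for 24 h, and the 3 U87MG-LMO2 libraries from cells given an LMO2 lentivirus for the same time, so every library came from virus-infected cells of the same line. LMO2 is a LIM-domain adaptor protein of transcriptional complexes, and the experiment asked what its overexpression does to the transcriptome. The sources do not say whether replicates were separate cultures, so the p-values measure only the spread between these libraries, which may be technical.

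As a check of the labels, LMO2 itself averaged 0.596 ± 0.213 CPM (counts scaled to a common library size, SD, n = 3) with the control virus and 505.9 ± 322 CPM with the LMO2 virus (edgeR adjusted p = 4.13e-04). The LMO2 virus libraries had 333.0, 307.0 and 877.9 CPM of vector and endogenous reads together, and the log2 fold change was 9.70, or 9.04 without replicate 3. Depth moved with the group: the control libraries held 11428432 to 13537284 expected counts in total and the LMO2 libraries 14630627 to 17892955. Replicate 3 of U87MG-LMO2 stood apart: its normalisation factor was 0.929 against 1.01 to 1.02 in the other 5 libraries, and the HOXB2 and HOXC10 results are given without it. Of 12 glial and neural markers, 10 were measured and 3 were above 1 FPKM in every library. SOX2, SOX10, S100B, PTPRZ1 and AQP4 were at or under 0.1 FPKM in every library. Vimentin made up most of a summed level of 5142 to 5227 FPKM in U87MG-control and 5151 to 5657 FPKM in U87MG-LMO2.

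U87MG expressed 12 of the 34 HOX genes at a mean of at least 1 FPKM (fragments scaled to gene length and to mapped reads, so that genes can be compared). Among them were HOXA3 and HOXA4; HOXB2, HOXB3 and HOXB4; HOXC4, HOXC5 and HOXC6; and HOXD4, HOXD8 and HOXD9. The expressed genes came from every cluster, and the same 12 reached this level in U87MG-LMO2. A further 13 genes averaged 0.1 to 1 FPKM in U87MG-control and 9 lay under 0.1 FPKM. Among the latter, HOXA10, HOXB1, HOXB5, HOXB7, HOXB8, HOXC9, HOXC13 and HOXD12 never exceeded 3 counts in any library, too few to set a level at this depth. The plot of levels by paralogue number shows where in each cluster the expressed genes sit.

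**Figure D1:**
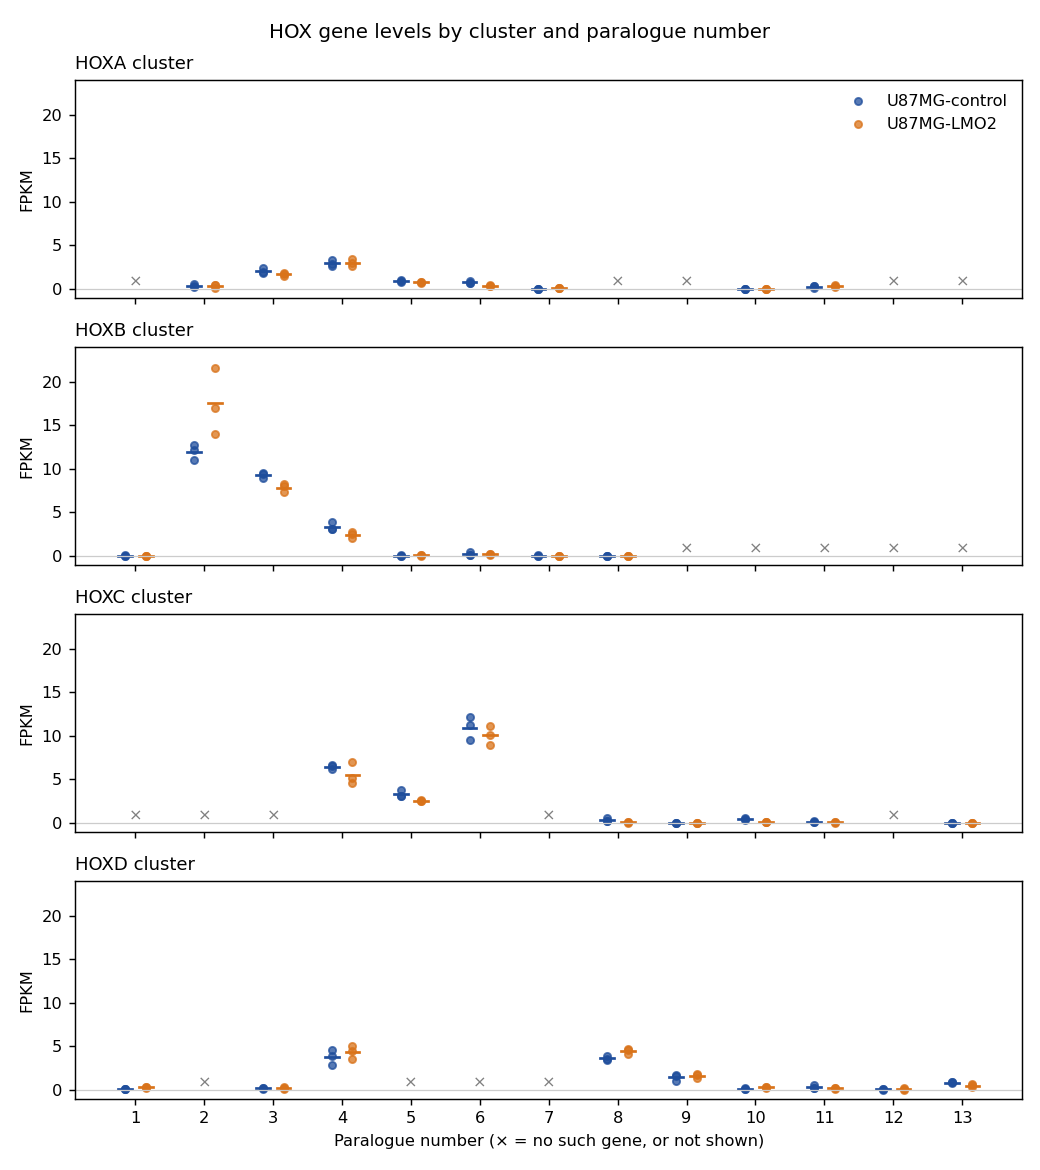
HOX gene levels in FPKM (y axis) against paralogue number (x axis), 1 panel per cluster; points are libraries (U87MG-control blue, U87MG-LMO2 orange), short bars are group means, and a cross marks a position with no gene or with none shown. HOXB2, HOXC6 and HOXB3 stand highest, and paralogue 4 is the position that reaches 1 FPKM in all 4 clusters.

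The expressed genes lay mostly below position 9, though not every low-numbered gene was expressed. In HOXD, HOXD1 (0.13 ± 0.02 FPKM) and HOXD3 (0.18 ± 0.069 FPKM) stayed under 1 FPKM in U87MG-control. Paralogues 1 to 3 held 40.2 ± 0.75% of the summed HOX level in U87MG-control, paralogues 4 to 8 held 54.2 ± 0.93%, and paralogues 9 to 13 held 5.63 ± 0.87% (SD, n = 3). Of the 11 genes measured at positions 9 to 13, HOXD9 was the only member at 1 FPKM or more. Paralogue 4, whose genes pattern the hindbrain-neck border, was the position at 1 FPKM or more in every cluster. Its genes summed to 16.6 ± 0.43 FPKM in U87MG-control. Other genes on the same strand share 80.5% of the HOXD4 exon bases and 31.0% of those of HOXA4. For HOXB4 and HOXC4 the shares were 17.1% and 17.8%, so some of these reads could belong to other genes. Paralogue 7 had 0.0833 ± 0.0586 FPKM from HOXA7 and HOXB7 together.

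The order of levels in U87MG-control was led by HOXB2 at 11.97 ± 0.88 FPKM, HOXC6 at 10.9 ± 1.35 FPKM and HOXB3 at 9.29 ± 0.293 FPKM (SD, n = 3). HOXB2 lay above HOXB3 in every library, while the range of HOXC6 overlapped both. HOXC4 followed at 6.46 ± 0.217 FPKM, below every HOXB3 value and above every value of the next gene. HOXD4, HOXD8, HOXB4, HOXC5 and HOXA4 then lay between 3.81 and 2.97 FPKM, each overlapping the next named, and HOXA3 (2.05 ± 0.267 FPKM) and HOXD9 (1.49 ± 0.376 FPKM) each stood clear of the genes on either side. HOXB2 exceeded 77.6% and HOXD9 49.9% of all genes with a count in U87MG-control.

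The promoters were read to see what the genes share upstream. RefSeq promoter windows (GRCh38.p14) were matched for 18 of the 34 genes, and the 250 bases before the start were used. CpG dinucleotides were dense: the median ratio of observed to expected CpG was 0.888 over the 18 HOX windows and 0.558 over 35116 RefSeq windows. The 6 matched genes at 1 FPKM or more had a median of 0.872 and the other 12, all under 1 FPKM, had 0.894. The windows of HOXC4, HOXD4 and HOXB1 are shown, with CpGs in capitals, because HOXC4 was the highest matched gene and the other two had the lowest CpG ratios while differing in expression.

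HOXC4: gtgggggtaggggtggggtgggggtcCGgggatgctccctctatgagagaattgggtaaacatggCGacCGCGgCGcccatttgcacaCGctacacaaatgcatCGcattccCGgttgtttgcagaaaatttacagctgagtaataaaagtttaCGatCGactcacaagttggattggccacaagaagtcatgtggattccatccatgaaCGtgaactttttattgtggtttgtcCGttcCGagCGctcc
HOXD4: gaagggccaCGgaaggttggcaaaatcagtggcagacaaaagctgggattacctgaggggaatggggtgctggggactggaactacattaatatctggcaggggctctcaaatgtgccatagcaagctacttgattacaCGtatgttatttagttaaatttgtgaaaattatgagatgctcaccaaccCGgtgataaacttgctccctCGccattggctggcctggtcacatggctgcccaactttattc
HOXB1: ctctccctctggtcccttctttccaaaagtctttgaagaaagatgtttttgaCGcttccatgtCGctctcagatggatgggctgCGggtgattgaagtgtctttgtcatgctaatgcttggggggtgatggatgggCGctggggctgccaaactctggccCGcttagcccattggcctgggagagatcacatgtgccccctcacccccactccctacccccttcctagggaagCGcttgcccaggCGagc

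The HOXC4 window is chr12:54016638-54016887 on the plus strand, which RefSeq also gives as the window of HOXC5, and its CpG ratio is 0.888. The same sequence therefore enters the CpG medians and the motif counts once for each of these genes. The HOXD4 window is chr2:176151300-176151549 on the plus strand, with 4 CpGs and a ratio of 0.287. The HOXB1 window is chr17:48531012-48531261 on the minus strand, with 7 CpGs and a ratio of 0.343. HOXD4 had 3.81 ± 0.857 FPKM in U87MG-control (SD, n = 3) and HOXB1 had 1 count in a single control library, so the CpG-poor pair differed in level. GENCODE v29 places the HOXD4 gene at chr2:176151222-176153226, so the whole window lies inside the gene in that annotation. The windows of HOXA6, HOXA7, HOXA10, HOXD3, HOXD10 and HOXD11 also lie wholly inside their genes there. HOXC5 starts at 54032853 in GENCODE, far past its window. The CpG and motif values therefore describe bases before RefSeq starts, not always sequence outside the gene.

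Motifs were searched on both strands of these windows, and matches of different motifs were allowed to overlap. The E-box CANNTG, the core bound by basic helix-loop-helix partners of LMO2, was in 16 of 18 HOX windows (88.9%) and in 61.8% of all RefSeq windows. GATAA, bound by GATA factors, was in 3 of 18 and in 20.4% of all windows. TTCNNNGAA, the STAT element, was in 0 of 18 and in 6.57% of all windows. TGATNNAT, a HOX-PBX site, was in HOXB1, HOXA2 and HOXD11 and in 6.47% of all windows, and TATAAA was in 3 of 18 and in 10.7% of all windows. These counts describe letters only.

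By cluster, HOXB and HOXC carried most of the HOX signal and HOXA and HOXD less. HOXB summed to 25.0 ± 1.30 FPKM in U87MG-control, 36.7% of the HOX total, and HOXC to 21.7 ± 1.84 FPKM, 31.8%. HOXA reached 10.7 ± 1.26 FPKM and HOXD 10.7 ± 0.85 FPKM (SD, n = 3). Summed over all 34 genes the level was 68.1 ± 3.67 FPKM in U87MG-control and 68.1 ± 5.23 FPKM in U87MG-LMO2, with equal means.

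With LMO2, HOXB stood at 28.1 ± 4.0 FPKM, HOXD at 12.2 ± 1.19 FPKM, HOXC at 18.4 ± 2.02 FPKM and HOXA at 9.40 ± 0.326 FPKM (SD, n = 3). HOXA in all 3 U87MG-LMO2 libraries (9.06 to 9.71 FPKM) was below all controls (9.86 to 12.2 FPKM), and HOXD in all 3 (11.4 to 13.6 FPKM) was above all controls (9.76 to 11.4 FPKM), the nearest HOXD values being 11.42 and 11.43 FPKM. HOXB and HOXC overlapped between the groups. FPKM does not carry the normalisation factor, which was 0.929 in U87MG-LMO2 replicate 3. In CPM, which does, every tested HOXA gene overlapped between the groups, so the HOXA separation is given for FPKM only. These sums follow their highest genes, and no test was run on them. The bars of summed levels show each library.

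**Figure D2:**
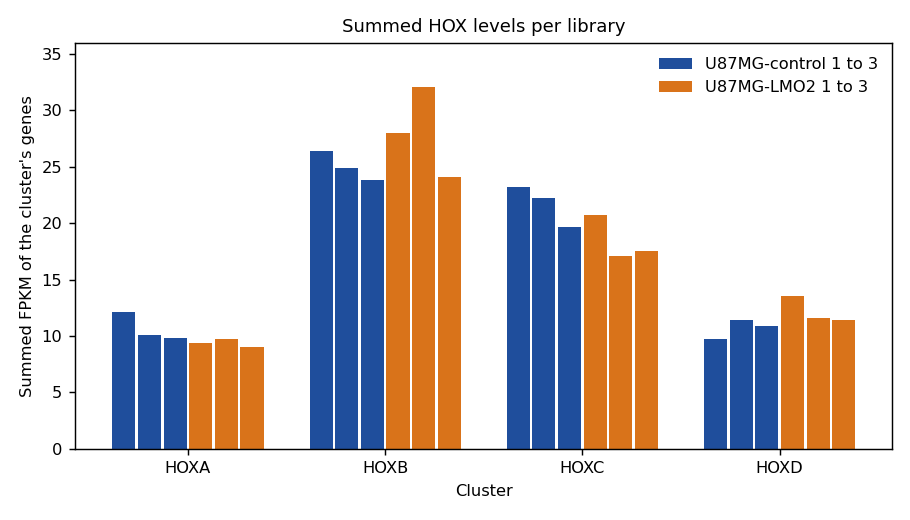
Summed FPKM of the measured HOX genes of each cluster (y axis) for the 4 clusters (x axis), 1 bar per library, U87MG-control blue and U87MG-LMO2 orange, replicates 1 to 3 from left to right. HOXB and HOXC are the tallest in both groups, and replicate 2 of U87MG-LMO2 has the highest HOXB bar at 32.1 FPKM.

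The comparison of U87MG-LMO2 with U87MG-control was made on counts for the 17 HOX genes that passed the low-count filter, and the other 17 are described by their counts further on. HOXB2 rose and HOXC10 fell, and the remaining 15 did not pass an edgeR adjusted p of 0.05. HOXC10 passed the filter through U87MG-control alone, so its lower direction was set by the filter wherever tested HOX genes are counted here. In the fit without a filter its adjusted p was 0.0194. The 2 calls among 17 are read against the 7.48% of all 16092 tested genes that were called, 4.72% higher and 2.75% lower. Fold changes were above 0 for 6 HOX genes and below 0 for 11, against 48.9% and 51.1% of all tested genes, with a median log2 fold change of -0.17 against -0.011 over all tested genes. In bulk RNA, fewer cells with a transcript and less of it per cell cannot be told apart.

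HOXB2 (Entrez gene 3212, chr17:48540894-48544989 on the minus strand, GRCh38), a regulator of hindbrain segment and facial nerve identity, had the highest mean level of the HOX genes. It had 228, 249 and 232 counts in U87MG-control replicates 1 to 3 and 427, 487 and 398 counts in U87MG-LMO2 replicates 1 to 3. Scaled to library size these were 19.8, 18.2 and 17.6 CPM and 26.0, 33.2 and 24.0 CPM. Every U87MG-LMO2 library was above every control, with replicate 2 the highest. The mean went from 18.5 ± 1.15 to 27.7 ± 4.84 CPM (SD, n = 3), a log2 fold change of 0.58 (SE 0.15, adjusted p = 0.0482). On the FPKM scale the level went from 11.97 ± 0.88 to 17.5 ± 3.81.

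The HOXB2 call lay close to the threshold. Of 15 alternative fits, 5 kept it, and the log2 fold change stayed between 0.43 and 0.68 in all 15. It was lost without U87MG-control replicate 1, 2 or 3 (adjusted p = 0.123, 0.151 and 0.178) and without U87MG-LMO2 replicate 1 or 2 (0.114 and 0.0867), after the GC-content correction (0.131) and in limma on log2(FPKM + 1) (0.104). It was kept without U87MG-LMO2 replicate 3 (0.00876), where 14.7% of all tested genes were called. Leaving out a control library left 0.875% to 1.08% of all tested genes called, against 7.48% in the main fit. Opposite-strand HOXB-AS1 overlaps 3.72% of the HOXB2 exon bases, and whether counting used strand is not stated. HOXB-AS1 itself had 121 counts in U87MG-control and 147 in U87MG-LMO2 (log2 fold change -0.019, adjusted p = 0.963).

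HOXB3 and HOXB4, the next genes upstream of HOXB2, had fold changes below 0. HOXB3 (3213), which acts with HOXB2 in hindbrain segments, had 34.6, 32.6 and 33.8 CPM in U87MG-control and 28.7, 29.9 and 29.6 CPM in U87MG-LMO2. All 3 U87MG-LMO2 values lay below the controls, yet the gene was not called (log2 fold change -0.20, SE 0.10, adjusted p = 0.258). HOXB4 (3214), known for expanding blood stem cells, had 7.89, 6.35 and 6.21 CPM against 5.55, 4.23 and 5.66 CPM, again without overlap and without a call (log2 fold change -0.40, adjusted p = 0.225). HOXB3 and HOXB4 share exon bases with each other in GENCODE, so reads could be split between them.

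The ratio of HOXB2 to HOXB3 counts within a library does not depend on how libraries are scaled. It was 0.571, 0.557 and 0.519 in U87MG-control and 0.909, 1.11 and 0.809 in U87MG-LMO2. The groups did not overlap. The ratio of HOXB2 to HOXB4 counts was 2.73 ± 0.197 in U87MG-control and 5.59 ± 1.97 in U87MG-LMO2 (SD, n = 3), also without overlap. Both ratios were chosen after the values of these genes were seen and restate them. Of the 3 other ratios computed, HOXC6 to HOXC4 was 1.75 ± 0.105 against 1.92 ± 0.355, HOXD8 to HOXD9 was 3.60 ± 1.34 against 3.69 ± 0.403 and HOXD8 to HOXD4 was 1.71 ± 0.532 against 1.76 ± 0.397, all with overlap.

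**Figure D3:**
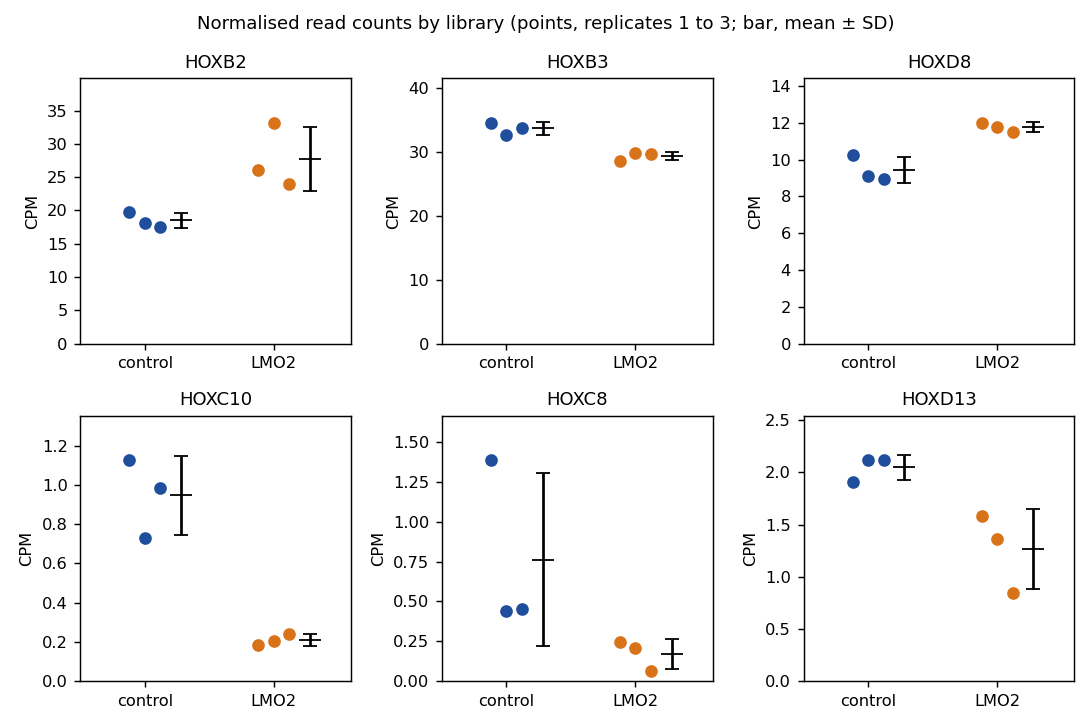
Normalised read count in CPM (y axis, from 0) for 6 HOX genes in the 3 libraries of each group (x axis; points, replicates 1 to 3 from left to right), with the mean and SD beside them. HOXB2 and HOXD8 lie higher and HOXB3, HOXC10, HOXC8 and HOXD13 lower in every U87MG-LMO2 library, and the 1.39 CPM of HOXC8 in U87MG-control replicate 1 stands far above its other values.

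HOXC10 (3226, chr12:53985065-53990279 on the plus strand), a gene of the lumbar spinal cord and hindlimb, was the HOX gene called lower. It had 13, 10 and 13 counts in U87MG-control and 3, 3 and 4 counts in U87MG-LMO2, although the latter libraries were deeper. These counts were 1.13, 0.730 and 0.984 CPM against 0.183, 0.204 and 0.241 CPM, with no overlap. The mean fell from 0.947 ± 0.201 to 0.210 ± 0.0293 CPM (SD, n = 3), a log2 fold change of -2.12 (SE 0.39, adjusted p = 0.0191), and its level was 0.473 ± 0.0961 and 0.10 ± 0.01 FPKM.

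A gene that passes the filter through U87MG-control alone, as HOXC10 did, had to be lower in U87MG-LMO2. HOXC10 stayed below 0, the direction that the filter had set, in all 13 alternatives that could test it and was called in 8. It was not called without U87MG-control replicate 1, 2 or 3 (adjusted p = 0.0817, 0.0607 and 0.0908) or without U87MG-LMO2 replicate 1 (0.0838), and was called without U87MG-LMO2 replicate 3 (0.0183). DESeq2 gave it no adjusted p. The transcript AC012531.2 shares 7.12% of the HOXC10 exon bases on the same strand and HOXC-AS3 2.70% on the other, so some of these few reads could belong to either.

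In the rest of the HOXC cluster, the expressed genes HOXC4, HOXC5 and HOXC6 were all under 0 by less than the test could call. HOXC6 (3223), a thoracic patterning gene, had 20.4, 19.4 and 17.0 CPM in U87MG-control and 19.0, 15.5 and 19.5 CPM in U87MG-LMO2 (log2 fold change -0.07, SE 0.14, adjusted p = 0.790). HOXC4 (3221) had 11.02, 10.95 and 10.37 CPM against 11.53, 8.66 and 8.44 CPM (-0.17, SE 0.16, adjusted p = 0.533). Both overlapped between the groups. HOXC5 (3222) went from 5.41 ± 0.69 to 4.26 ± 0.188 CPM (SD, n = 3) without overlap and was not called (-0.35, adjusted p = 0.253). HOXC4 shares 17.8% of its exon bases with HOXC5 and HOXC6, and HOXC5 shares 33.9% with AC012531.2, so the split of reads among them is uncertain.

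HOXC8 (3224), which marks brachial and thoracic levels, was lower too but stood below the filter. It had 16, 6 and 6 counts in U87MG-control and 4, 3 and 1 in U87MG-LMO2, with no overlap and with U87MG-control replicate 1 far above the rest. The pooled ratio was 0.230 with a 95% exact counting interval of 0.0907 to 0.519, which covers counting error only, as do all such intervals here. In the edgeR fit without a filter HOXC8 had a log2 fold change of -2.08 (SE 0.66, adjusted p = 0.0877) and was not called. HOXC11 had 10 and 9 pooled counts, and HOXC9 and HOXC13 had at most 1 count in any library.

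In the HOXD cluster the downstream and middle genes had fold changes above 0 and the last gene had a fold change below 0, and none was called. HOXD8 (3234) had 10.2, 9.13 and 8.93 CPM in U87MG-control and 12.02, 11.8 and 11.5 CPM in U87MG-LMO2. The groups did not overlap, and the log2 fold change of 0.32 (SE 0.13) had an unadjusted p of 0.0394 and an adjusted p of 0.171. HOXD4 (3233), a hindbrain and neck gene, had 4.42, 6.94 and 5.98 CPM against 7.62, 5.32 and 7.71 CPM, with overlap (0.25, SE 0.22, adjusted p = 0.519). HOXD9 (3235) overlapped as well (0.19, adjusted p = 0.658). AC009336.2 shares 80.5% of the HOXD4 exon bases on the same strand, so HOXD4 reads cannot be told apart from that transcript by position.

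HOXD13 (3239), the digit gene at the upstream end of the cluster, had 22, 29 and 28 counts in U87MG-control and 26, 20 and 14 in U87MG-LMO2. Scaled to library size these were 1.91, 2.12 and 2.12 CPM and 1.59, 1.36 and 0.843 CPM, without overlap. The log2 fold change was -0.70 (SE 0.28), with an unadjusted p of 0.0368 and an adjusted p of 0.165. HOXB2, HOXC10, HOXD13 and HOXD8 were the 4 of 17 HOX genes with an unadjusted p under 0.05, which 25.7% of all tested genes reached. Of these, HOXC10 had passed the filter through U87MG-control alone.

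In the HOXA cluster none of the 6 tested genes was called by edgeR, and 0 had an unadjusted p under 0.05. HOXA4 (3201), a neck-level patterning gene, had 5.73, 4.53 and 4.99 CPM in U87MG-control and 4.51, 5.86 and 5.48 CPM in U87MG-LMO2 (log2 fold change 0.06, SE 0.18, adjusted p = 0.870), a direction that turned in 3 alternatives. Its values overlapped between the groups. HOXA3 (-0.21, adjusted p = 0.502), a thymus and parathyroid gene, and HOXA5 (-0.17, adjusted p = 0.722), a lung gene, overlapped too. HOXA2 (-0.15), a jaw and hindbrain gene, and HOXA11 (0.36), a forearm gene, rested on 27 control counts each.

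**Figure D4:**
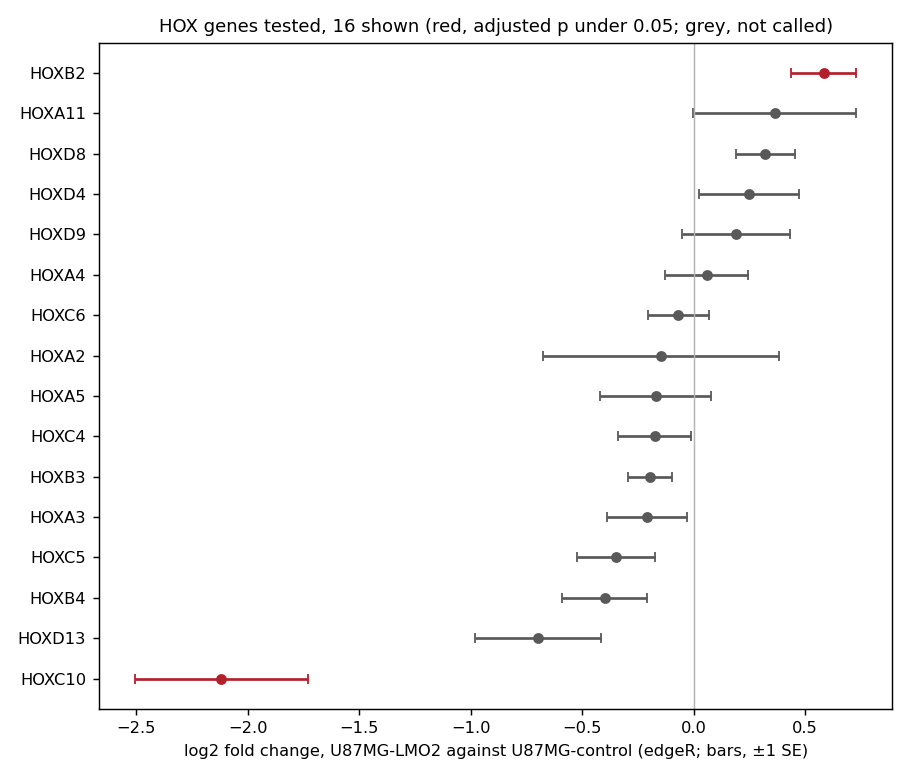
Log2 fold change of U87MG-LMO2 against U87MG-control (x axis; points, edgeR estimates; bars, 1 SE on either side) for 16 of the 17 tested HOX genes (y axis), in red where the adjusted p was under 0.05. HOXB2 at 0.58 and HOXC10 at -2.12 are the red points at the ends, and the other 14 lie between -0.70 and 0.36.

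For 7 of the 17 tested genes the CPM of the groups did not overlap, where 34.1% of all tested genes did not. HOXB2 and HOXD8 were the 2 on the higher side (17.5% of all genes), and HOXB3, HOXB4, HOXC5, HOXC10 and HOXD13 were the 5 on the lower side (16.6%). The side of HOXC10 was fixed beforehand, because it passed the filter through U87MG-control alone.

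Among the 17 genes under the filter, HOXC8, HOXD1 and HOXD10 had exact intervals that did not hold 1. None was called in the edgeR fit without a filter, which called 5.31% of its genes. HOXC8 and HOXD1 had an unadjusted p under 0.05 in that fit. How many other low-count genes did the same was not counted, so these genes cannot be called unusual. Of the genes that passed the filter, 25.7% had an unadjusted p under 0.05 and 34.1% did not overlap between the groups. HOXD1 (3231) had 3, 3 and 3.05 expected counts in U87MG-control and 10, 6 and 11 in U87MG-LMO2, without overlap. Its pooled ratio was 2.41 (95% interval 1.10 to 5.85), and 58.1% of its exon bases lie opposite HAGLR and AC009336.3. HOXD10 (3236) had 2, 3 and 5 counts against 6, 10 and 12, a pooled ratio of 2.26 (1.06 to 5.21), with overlap in CPM. HOXA6 (3203) had 8, 7 and 7 counts against 5, 5 and 4, and HOXA7 (3204) had 1, 1 and 0 against 4, 3 and 4. Their ratios of 0.513 (0.243 to 1.05) and 4.44 (0.968 to 41.2) had intervals that held 1. HOXA-AS3 lies opposite 39.3% of the HOXA6 and 62.5% of the HOXA7 exon bases. It had 17 pooled counts in U87MG-control and 27 in U87MG-LMO2. The intervals of HOXB6, HOXC11, HOXD3 and HOXD11 also held 1.

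HOX proteins bind DNA with TALE homeodomain cofactors of the PBX and MEIS families, and 9 of the 11 listed cofactors were tested. With edgeR 0 of 9 were called at an adjusted p under 0.05, where 7.48% of all tested genes were. An unadjusted edgeR p under 0.05 was reached by 2 of them and by 25.7% of all tested genes. DESeq2 called 0, where 10.5% of all tested genes were called. PBX3 had the highest level, 44.2 ± 4.75 FPKM in U87MG-control and 39.8 ± 6.82 FPKM in U87MG-LMO2 (SD, n = 3; log2 fold change -0.12, adjusted p = 0.586). TGIF1, a repressor of the same family, had 33.2 ± 2.24 and 23.3 ± 6.02 FPKM (-0.43, adjusted p = 0.207). The list's median log2 fold change was -0.027. Without U87MG-LMO2 replicate 3, 1 of its genes was called, where 14.7% of all tested genes were.

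Polycomb proteins keep HOX clusters silent and trithorax proteins keep them active. Of 30 Polycomb genes tested, 1 rose and 1 fell, near the 7.48% of all tested genes that were called, with a median log2 fold change of -0.0013. CBX7, a chromodomain subunit of Polycomb complex PRC1, went from 10.1 ± 0.738 to 17.0 ± 1.36 CPM (0.76, SE 0.13, adjusted p = 0.0168), and PHC1, another PRC1 subunit, went from 93.2 ± 3.59 to 69.4 ± 6.33 CPM (-0.42, SE 0.10, adjusted p = 0.0420; SD, n = 3 for each). PHC2 and PCGF2, the highest by FPKM, were not called (-0.42 and -0.028, adjusted p = 0.147 and 0.883). Of 20 trithorax and activator genes 1 fell, where 2.75% of all tested genes did. It was KMT2A, the histone methyltransferase that maintains HOX expression, which went from 153.9 ± 9.71 to 112.3 ± 12.6 CPM (SD, n = 3; -0.46, SE 0.11, adjusted p = 0.0446). MLLT1 and MEN1, the most abundant of that list by FPKM, were not called (0.023 and -0.21, adjusted p = 0.893 and 0.201), and the list's median was -0.094. Without U87MG-control replicate 1, 2 or 3 or U87MG-LMO2 replicate 1, 0 genes of either list were called. In those fits 0.875% to 1.38% of all tested genes were. Without U87MG-LMO2 replicate 2, 1 Polycomb and 2 trithorax genes were called, where 5.4% of all tested genes were. Without U87MG-LMO2 replicate 3, 4 and 2 were, where 14.7% of all tested genes were.

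Retinoic acid switches on low-numbered HOX genes in the embryo, and 13 genes of its pathway were tested. Of these, 3 rose and 1 fell, where 4.72% and 2.75% of all tested genes did, and the median log2 fold change was 0.18. The nuclear receptor RXRA went from 40.6 ± 5.21 to 86.9 ± 6.05 CPM (SD, n = 3; 1.10, SE 0.12, adjusted p = 0.00360), with every U87MG-LMO2 library above every control. The binding protein CRABP2 (0.71, adjusted p = 0.0207) and CYP26B1, which degrades retinoic acid (0.92, adjusted p = 0.0471), rose as well. ALDH1A1, which makes retinoic acid, fell from 5.99 ± 2.11 to 2.80 ± 0.418 CPM (SD, n = 3; -1.09, SE 0.28, adjusted p = 0.0482), and ALDH1A3, the highest of the list by FPKM, was not called (0.59, adjusted p = 0.248). Without U87MG-control replicate 1, 2 or 3 or U87MG-LMO2 replicate 1, 1 gene of the list was called. In those fits 0.875% to 1.38% of all tested genes were. Whether these genes bear on HOXB2 was not tested.

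Of 19 noncoding RNAs of the HOX clusters, 14 were measured and 4 were tested. None was called (0 of 4 with edgeR and 0 at an unadjusted p under 0.05). HOXD-AS2 had 9.18 ± 1.21 FPKM in U87MG-control and HOTAIRM1, which lies in HOXA, had 8.71 ± 1.18 FPKM (SD, n = 3), each within the range of the expressed HOX genes. Their log2 fold changes were 0.099 and -0.14 (adjusted p = 0.769 and 0.608). HOTAIR, which lies in HOXC, was low, with 23 and 17 pooled counts.

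Markers of other cell types were examined beside these results. Of 8 mesenchymal and fibroblast markers, 6 were above 1 FPKM in every library and THY1 was at or under 0.1 FPKM. COL1A1, COL1A2, PDGFRB and TWIST1 rose and ACTA2 fell among 7 tested, where 7.48% of all tested genes were called. The summed level was 707.1 to 825.1 FPKM in U87MG-control and 1082 to 1712 FPKM in U87MG-LMO2, and the gene with the highest level in it, FN1, was not called (373.2 ± 62.8 and 717.5 ± 314 FPKM, SD, n = 3, with 1079 FPKM in U87MG-LMO2 replicate 3; adjusted p = 0.0755). Of 11 endothelial, immune and epithelial markers none was called by edgeR and 0 had an unadjusted p under 0.05. Their sums were 225 to 295 FPKM in U87MG-control and 170.3 to 296 FPKM in U87MG-LMO2. Of these markers 3 were above 1 FPKM in every library, and CDH5 and CD3E were at or under 0.1 FPKM. The mesenchymal sums moved with the group as HOXB2 and HOXC10 did, and their part in the HOX results was not tested.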

How the data were processed

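For each library the authors deposited an expected count per Entrez gene, an estimate of reads that is not normalised, and an FPKM value, which they scaled to gene length and mapped reads. The submitters' processing notes name GRCh38.p12, Bowtie2 and BWA without their roles, and the counting program, its version and the use of strand are not given in the sources used here. The authors' comparison table also holds a log2 ratio and a probability, which were not used. Its group means showed damage in the table of U87MG-LMO2 replicate 3, which has 3 unreadable lines. The 134 genes whose mean differed by more than 0.0006 FPKM were left out of all tests, and 0 HOX genes were among them. A gene with no line in a library was taken as 0 counts.

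Expected counts were rounded and tested with edgeR 4.0.16 in R 4.3.3 (filterByExpr, TMM, glmQLFit and glmQLFTest, 2-sided, no block), with Benjamini-Hochberg adjustment over 16092 genes and a call at an adjusted p under 0.05. Each SE was the absolute log2 fold change divided by the square root of the quasi-likelihood F statistic. CPM used the TMM-adjusted library sizes. Pooled ratios carry exact 95% intervals that cover counting error alone, since no use of molecular identifiers is stated and duplicate reads may count more than once. Coordinates, exon overlap and GC content came from GENCODE v29 (GRCh38), and symbols and promoters from RefSeq (GRCh38.p14). Alternatives were DESeq2 1.42.0, upper-quartile normalisation, no filter, at least 10 counts in every library, limma 3.58.1 on log2(FPKM + 1) and log2(FPKM + 0.1), a block for the replicate number, a GC-content correction (lowess, span 0.3, GC known for 89.8% of genes), glmTreat against a 2-fold change, and leaving out each library.

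Every HOX gene that passed the filter was named except 1 that is not reported here, with full values for those called, those with an unadjusted p under 0.05 and the 2 highest of each cluster. Of the other lists, the called genes and the 2 most abundant were named. HOXC8, HOXD1 and the other genes under the filter were named after their values were seen, as were HOXB-AS1, HOTAIR and the neighbour ratios. The members and lists were chosen with earlier results of these data known.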

Additional observations from a re-analysis of the deposited data

How the results depend on the processing

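LMO2 was called in all 14 alternatives that tested it. HOXB2 kept its direction in 15 and HOXC10, whose direction the filter had set, in 13. None of the other 15 HOX genes was called in any alternative. No HOX gene was called higher in limma on log2(FPKM + 1), in limma on log2(FPKM + 0.1), with the GC-content correction or in glmTreat against a 2-fold change (0 in each, against 1). No HOX gene was called lower (0 against 1) in glmTreat, with at least 10 counts in every library, which removes HOXC10, or in DESeq2, which gave no adjusted p for HOXA2, HOXA11 and HOXC10. At least 0.1 FPKM would count 25 HOX genes as expressed, and at least 5 FPKM would count 4. Over all genes, glmTreat called 14 higher and 1 lower, against 760 and 443, and DESeq2 called 681 lower. In glmTreat 0 Polycomb, 0 trithorax and 0 retinoic acid genes were called, against 2, 1 and 4. DESeq2 called 3 trithorax genes, where 10.5% of all tested genes were called. Both limma fits called 0 trithorax and 2 retinoic acid genes. With log2(FPKM + 1) 5.53% of all tested genes were called, and with log2(FPKM + 0.1) 5.44%.

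No sign of pairing by replicate number was seen: deviations of libraries with the same number correlated at -0.12, -0.0034 and -0.041 over 16092 genes. The deviations were taken from the mean of only 3 libraries per group, so they cannot show that the libraries were unpaired. With the replicate block, 0 HOX genes were called higher (HOXB2 adjusted p = 0.0859) and HOXC10 was called lower, 387 genes were higher and 189 lower, and 1 Polycomb, 0 trithorax and 2 retinoic acid genes were called.

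Leaving out 1 library at a time gave 0 to 1 HOX genes higher and 0 to 1 lower, 102 to 1307 genes higher and 42 to 1102 lower, and 0 to 1 TALE, 0 to 4 Polycomb, 0 to 2 trithorax, 1 to 6 retinoic acid and 0 to 2 flanking genes called. Only genes near 0 changed sign. Without 1 library HOXA2 ran from -0.44 to 0.26, HOXA4 from -0.021 to 0.17 and HOXC6 from -0.14 to 0.027. HOXA4 was -0.069 and HOXD9 -0.016 with the GC-content correction. For the changes not set by fewer genes or libraries the cause was not tested. Counts of 10 or fewer over 3 libraries, as for most upstream HOX genes, limit what could be seen there.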

Other observations

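The genes that border the HOX clusters were examined beside them. Of 17 listed flanking genes 14 were measured and 10 were tested, of which edgeR called 0 and 1 had an unadjusted p under 0.05. HNRNPA1, an RNA-binding protein gene beside HOXC, had 347.3 ± 22.7 FPKM in U87MG-control and 295.7 ± 93.1 FPKM in U87MG-LMO2 (SD, n = 3; log2 fold change -0.23, adjusted p = 0.487). ATP5MC1, a subunit gene of the mitochondrial ATP synthase near HOXB, had 161.0 ± 8.03 and 180.6 ± 4.24 FPKM (0.21, adjusted p = 0.215). The list's median log2 fold change was -0.081. Without U87MG-LMO2 replicate 3, 2 of its genes were called, where 14.7% of all tested genes were. EVX2, the homeobox gene at the upstream end of HOXD, had 2 counts in U87MG-control and 0 in U87MG-LMO2, the latter allowing up to 3.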
